A study of Mus musculus with 22 samples.

Results

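Cd36, Krt23, Proser2 and 1810053B23Rik are 4 mouse genes whose RNA was higher in the liver of germ-free than of conventional mice in this series. They were selected on the measured germ-free difference (the edgeR fold change and p-value of germ-free against conventional mice), so their germ-free levels are described below without a test. Only the changes with pregnancy are tested. Those tests use the same libraries, so their p-values are not independent of the choice. They are 4 of 53392 rows of the deposited count table, matched to their symbols through the Ensembl identifiers, and each passed the filter on low counts with 15928 genes in all.

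Liver RNA was sequenced from 22 female C57BL/6 mice, 1 library per mouse, in a design that crossed microbiota status with pregnancy. The series asked how the microbiota affects drug-processing genes of the liver in pregnancy. The groups were 5 germ-free pregnant, 6 germ-free non-pregnant, 5 conventional pregnant and 6 conventional non-pregnant mice. Germ-free mice are raised without microorganisms, and conventional mice carry an ordinary microbiota. All mice had the same autoclaved chow, water and bedding, and livers of pregnant mice were taken on gestation day 15. Germ-free females were mated for 72 h at 11 to 15 weeks of age, and their gestation day was an assumed one. Conventional females were mated overnight at 8 weeks. The labels give ages, without a unit, of 91 to 121 for germ-free and 70 to 77 for conventional mice. Age and germ-free status therefore cannot be told apart, and neither can germ-free status and true gestation day in pregnant mice.

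Totals were 18064491 to 30036912 estimated counts per library, and mitochondrially encoded genes took 5.9% to 31.99% of them. Hepatocyte markers, including Alb and Apoa1, were present in every group, with 12 of 12 passing the filter. Their summed level was 134000 to 201000 counts scaled to library size (CPM) in germ-free pregnant, 62200 to 99700 CPM in germ-free non-pregnant, 74100 to 248000 CPM in conventional pregnant and 70600 to 102000 CPM in conventional non-pregnant livers. It thus moved with pregnancy, without overlap in germ-free mice, and its part in the pregnancy changes below was not tested. The germ-free pregnant library 2 stood apart in bile duct markers, and the conventional pregnant library 2 had the highest summed macrophage and neutrophil markers, at 2070 and 39.8 CPM. A further 6 libraries held more than 1 CPM of the adipocyte gene Adipoq. Leaving out these 6, which leaves 3 germ-free libraries a group, ended 17 of 28 germ-free pregnancy calls of the list genes examined and 4 of 22 conventional ones and turned the sign of none, and the value is given beside each named call that it ended. In bulk tissue, fewer cells of a type and less RNA per cell cannot be told apart.

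CD36 is a membrane scavenger receptor that brings long-chain fatty acids and oxidised lipoproteins into cells. Its gene is abundant in fat, muscle, macrophages and endothelium and low in healthy mouse liver, where the nuclear receptors PPAR-gamma, LXR and PXR and the aryl hydrocarbon receptor are known to raise it. Keratin 23 is an acidic (type I) keratin, a subunit of intermediate filaments, and has been described as stress-inducible in mouse liver, whereas the keratins of resting hepatocytes are keratin 8 and keratin 18. Proser2 encodes a proline- and serine-rich protein whose function is poorly known, and 1810053B23Rik gives a noncoding RNA with no role assigned here.

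All 4 genes lie on the minus strand of the mouse genome. In the GENCODE M21 models on GRCm38, Cd36 (ENSMUSG00000002944.15) spans chr5:17781690-17888801, and Krt23 (ENSMUSG00000006777.7) spans chr11:99477974-99493137, in the cluster of acidic keratin genes. Proser2 (ENSMUSG00000045319.13) spans chr2:6097607-6130211, and 1810053B23Rik (ENSMUSG00000100277.8), annotated as a processed transcript, spans chr16:93342504-93366668. No other annotated gene overlapped any of them, which matters because the library kit did not keep strand.

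Because the 4 genes were picked for a shared germ-free difference, the 250 bases before a RefSeq transcription start of each are printed, 5′ to 3′ on the gene's own strand (GRCm38.p6). Capitals mark matches, on either strand, to 5 short motifs of nuclear receptors, the aryl hydrocarbon receptor, STAT5, the E-box and the TATA box, spelled out after the sequences. The Cd36 window, chr5:17835897-17836146, belongs to a start inside the GENCODE gene and touches no exon. The Krt23 window is chr11:99493121-99493370 and the Proser2 window chr2:6130186-6130435, which overlap the genes' own first GENCODE exons by 17 and 26 bases. RefSeq gives 4 start windows for 1810053B23Rik, and the one shown, chr16:93353190-93353439, was taken because it held the most motif matches. It too lies inside the GENCODE gene and covers 51 bases of the gene's own exons.
Cd36: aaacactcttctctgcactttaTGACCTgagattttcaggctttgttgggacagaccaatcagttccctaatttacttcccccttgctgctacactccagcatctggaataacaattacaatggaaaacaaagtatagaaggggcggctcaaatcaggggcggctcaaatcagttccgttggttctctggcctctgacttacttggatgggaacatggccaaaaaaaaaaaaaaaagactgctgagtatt
Krt23: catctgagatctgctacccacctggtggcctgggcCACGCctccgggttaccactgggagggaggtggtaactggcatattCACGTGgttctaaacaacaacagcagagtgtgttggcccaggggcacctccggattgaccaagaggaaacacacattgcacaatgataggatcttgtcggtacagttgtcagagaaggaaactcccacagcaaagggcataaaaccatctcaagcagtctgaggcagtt
Proser2: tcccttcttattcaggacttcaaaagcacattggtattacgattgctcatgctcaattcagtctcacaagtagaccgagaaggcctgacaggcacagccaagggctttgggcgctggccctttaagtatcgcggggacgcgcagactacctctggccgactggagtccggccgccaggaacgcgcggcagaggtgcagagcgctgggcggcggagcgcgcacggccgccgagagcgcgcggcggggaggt
1810053B23Rik: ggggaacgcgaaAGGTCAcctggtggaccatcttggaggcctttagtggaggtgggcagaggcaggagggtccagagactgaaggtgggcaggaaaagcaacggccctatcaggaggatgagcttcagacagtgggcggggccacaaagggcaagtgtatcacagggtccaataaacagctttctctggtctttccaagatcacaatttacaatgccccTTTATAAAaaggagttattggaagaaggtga

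The nuclear receptor half-site AGGTCA occurred in the Cd36 window, from -228 to -223 relative to the start, and 14.0% of all 32851 windows of this length hold it. The Krt23 window held the aryl hydrocarbon receptor core GCGTG from -215 to -211, which 28.2% of all windows hold. It also held the E-box CACGTG from -169 to -164, which 6.02% of all windows hold. The 1810053B23Rik window held the half-site from -238 to -233 and the TATA box TATAAA on both strands in overlapping letters, between -31 and -24. Because that window was picked for its matches, they are not set against the share of all windows, and of the other 3 windows of this gene the first and the last held only the half-site and the remaining one none of the motifs. The Proser2 window held none of the 5 motifs and was the richest of the 4 in G and C, at 62.8%, against a median of 52.4% over all windows and 43.2% for Cd36. The STAT5 motif TTCNNNGAA, present in 7.02% of all windows, was in none of the 4. These are matches of letters and not evidence of binding.

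**Figure D1:**
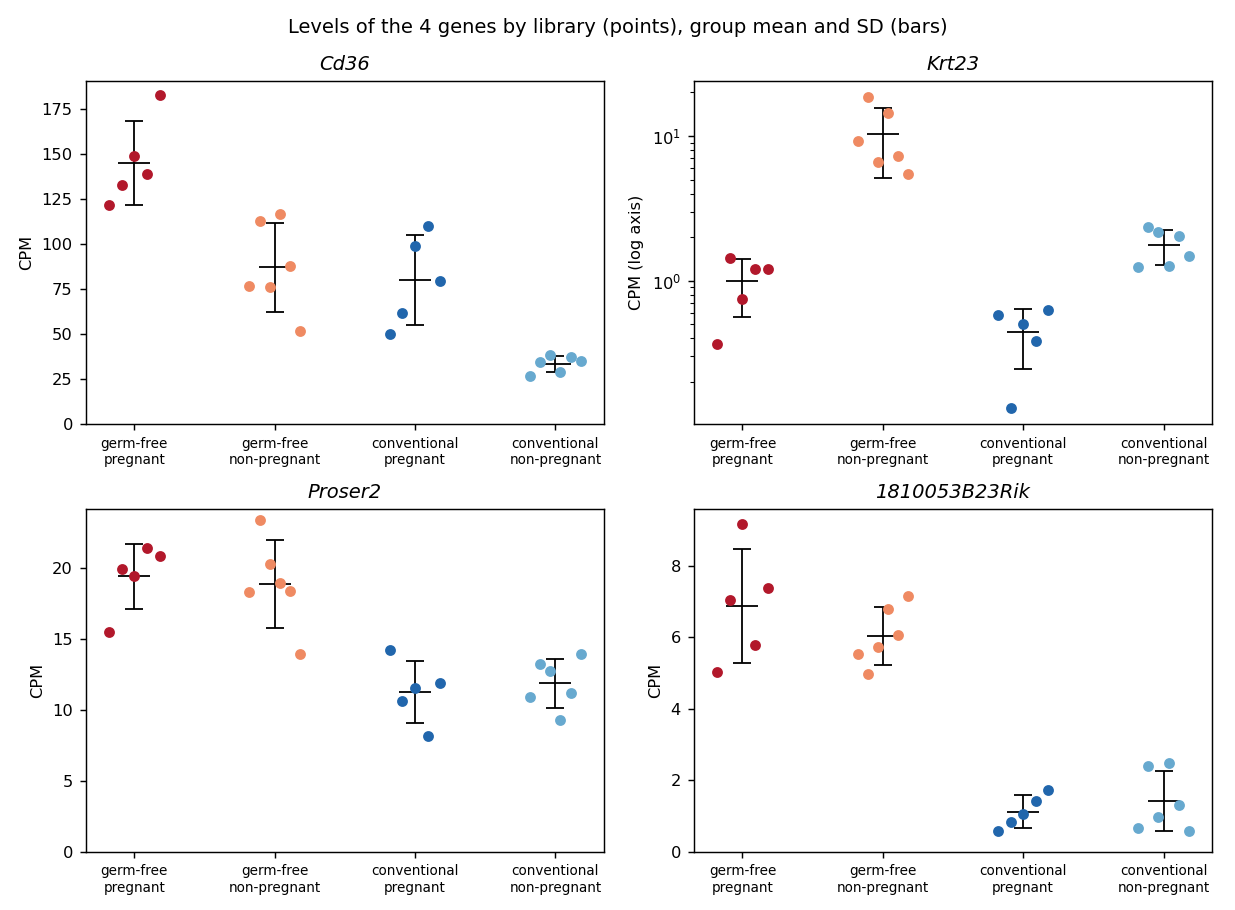
Each point is 1 liver library, with its level in CPM on the vertical axis (a log axis for Krt23), and horizontal lines give the group mean with bars of 1 SD. Cd36 was highest in germ-free pregnant and lowest in conventional non-pregnant mice, Krt23 stood out in germ-free non-pregnant mice, and Proser2 and 1810053B23Rik separated by germ-free status in both pregnancy states.

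Cd36 was high in germ-free mice and rose with pregnancy in both kinds of mice, so that the germ-free pregnant group held the highest levels. Germ-free pregnant livers held 122, 133, 149, 139 and 183 CPM of Cd36, and germ-free non-pregnant livers 76.9, 113, 76.3, 117, 88.0 and 51.9 CPM. Conventional pregnant livers held 50.0, 61.9, 98.9, 110 and 79.4 CPM, and conventional non-pregnant livers 26.7, 34.6, 38.2, 29.1, 37.2 and 34.8 CPM. Every germ-free pregnant library was above every library of the other groups, every conventional non-pregnant library was below them, and the middle groups overlapped. Group means were 145 ± 23.2 CPM in germ-free pregnant (SD, n = 5), 87.2 ± 24.6 CPM in germ-free non-pregnant (n = 6), 80.0 ± 24.8 CPM in conventional pregnant (n = 5) and 33.4 ± 4.56 CPM in conventional non-pregnant mice (n = 6).

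Pregnancy raised Cd36 by 0.73 ± 0.20 on the log2 scale in germ-free mice (edgeR adjusted p = 0.0175) and by 1.26 ± 0.20 in conventional mice (edgeR adjusted p = 0.000212). Those are 1.66-fold and 2.39-fold changes, without overlap between pregnant and non-pregnant libraries in either case, a separation that 5.66% and 2.57% of all genes showed in that direction. Genes called higher with pregnancy made up 7.15% of all genes tested in germ-free mice and 5.49% in conventional mice, and Cd36 ranked 703 by size among the 1139 called in germ-free mice and 381 among the 875 called in conventional mice. In germ-free mice the call did not hold in every fit: without the germ-free pregnant library 5, the highest of all, the change was 0.62 with an edgeR adjusted p of 0.0831. Leaving out any other single germ-free library kept it, at an edgeR adjusted p of up to 0.043. The low conventional non-pregnant levels that chose Cd36 are also the baseline of its conventional test, which favours a rise there.

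In the contrast that chose it, Cd36 was 2.61-fold higher in germ-free than in conventional non-pregnant mice (log2 difference 1.38 ± 0.20) and 1.81-fold higher in germ-free than in conventional pregnant mice (0.86 ± 0.21), without overlap in either state, as for 0.364% and 0.496% of all genes. The pregnancy change was smaller in germ-free than in conventional mice by 0.52 ± 0.28 on the log2 scale, with a 95% interval of the difference, germ-free minus conventional, from -1.12 to 0.07, which did not pass the test (edgeR adjusted p = 0.882). That difference is also the difference between the germ-free effects, whose sizes chose the genes. Choosing on a large effect in non-pregnant mice favours a value below 0.

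Per kilobase of exon, Cd36 was a mid-ranked gene of fatty acid uptake in these livers. It stood at 40.4 CPM per kilobase in germ-free pregnant, 24.3 in germ-free non-pregnant, 22.3 in conventional pregnant and 9.31 in conventional non-pregnant mice, which placed it 8, 10, 10 and 14 from the top among 26 genes of uptake. Fabp1, the liver fatty acid-binding protein, headed that list in each group, at 5370, 6060, 6640 and 6070 CPM per kilobase in the same order. In germ-free pregnant livers Cd36 lay just above Lrp1 and below Acsl5, and in conventional non-pregnant livers just below Scarb1.

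Some of the libraries with the most Cd36 in their group also held adipocyte RNA. Adipoq, the adipocyte gene for adiponectin, exceeded 1 CPM in 6 libraries: the germ-free pregnant libraries 3 and 5 (2.0 and 2.25 CPM), the germ-free non-pregnant libraries 2, 3 and 4 (3.21, 2.75 and 1.47 CPM) and the conventional non-pregnant library 2 (1.31 CPM). Of these, the germ-free pregnant libraries 3 and 5 and the germ-free non-pregnant libraries 2 and 4 were the highest of their groups for Cd36. The germ-free non-pregnant library 3, at 76.3 CPM, and the conventional non-pregnant library 2, at 34.6 CPM, were not. Lep, the leptin gene, stood at 0.526 to 3.49 CPM in the same 5 germ-free libraries and at no more than 0.239 CPM in any other library. Where Adipoq had 0 counts, Cd36 was 133 and 139 CPM in 2 germ-free pregnant libraries, 51.9 and 88.0 CPM in 2 germ-free non-pregnant libraries and 61.9 and 98.9 CPM in 2 conventional pregnant libraries. No conventional non-pregnant library had 0 counts. The part of adipocyte RNA in the Cd36 levels was not tested.

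Without the 6 libraries, the pregnancy change of Cd36 in germ-free mice was 0.85 and no longer passed (edgeR adjusted p = 0.126, with 3 libraries a group), and that in conventional mice was 1.25 (edgeR adjusted p = 0.00156). The germ-free difference was then 1.12 in non-pregnant and 0.72 in pregnant mice on the log2 scale. Of the 10 adipose and muscle markers, 5 passed the filter and none was at 0 in all libraries. Their summed level, which includes Car3, a gene that hepatocytes also express, was 1110 to 1970 CPM in germ-free pregnant, 780 to 1370 CPM in germ-free non-pregnant, 240 to 1410 CPM in conventional pregnant and 1060 to 1750 CPM in conventional non-pregnant livers.

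**Figure D2:**
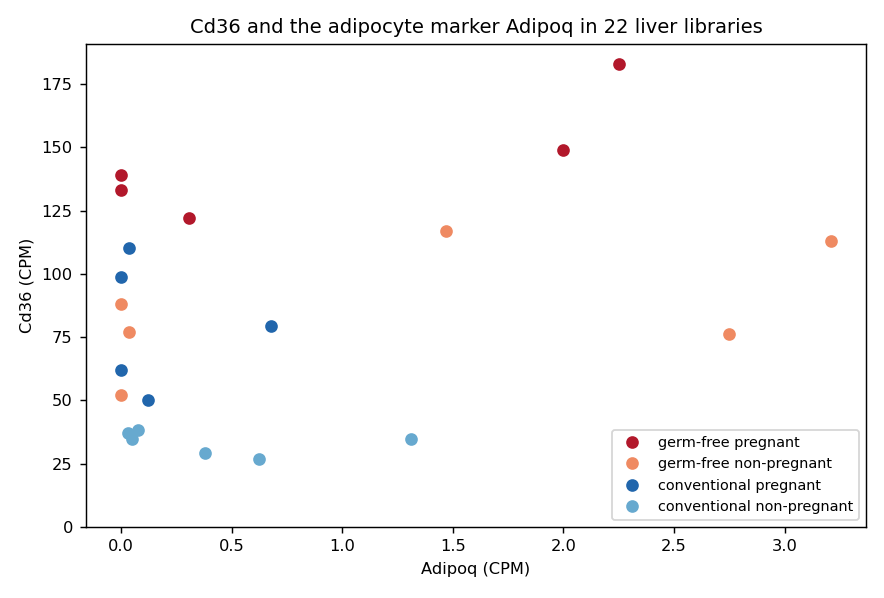
Each point is 1 library, with the level of the adipocyte gene Adipoq in CPM on the horizontal axis and that of Cd36 in CPM on the vertical axis, coloured by group. Above 1 CPM of Adipoq lie 5 germ-free libraries and 1 conventional non-pregnant library. Below it, germ-free pregnant libraries lie highest in Cd36, conventional non-pregnant ones lowest, and the middle groups overlap. The part of adipocyte RNA was not tested.

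Other cells that carry CD36 were also looked at. The 17 macrophage and Kupffer cell markers summed to 352 to 769 CPM in germ-free pregnant, 306 to 764 CPM in germ-free non-pregnant, 389 to 2070 CPM in conventional pregnant and 374 to 961 CPM in conventional non-pregnant livers. The 16 endothelial markers summed to 235 to 405, 277 to 388, 298 to 431 and 297 to 388 CPM in the same 4 groups, and the 12 platelet markers to 6.57 to 10.7, 5.92 to 9.26, 6.19 to 24.3 and 5.32 to 10.2 CPM. In germ-free against conventional pregnant livers, 16 of 17 macrophage markers had a log2 difference below 0, with a median of -0.72 against -0.0317 over all genes, and edgeR called 0 of them (5 at an unadjusted p under 0.05, and 0 by DESeq2). That comparison includes the conventional pregnant library 2, which held the 2070 CPM, and the median without it is not given here. With pregnancy, Itgam, an integrin of myeloid cells, rose by 1.35 ± 0.41 in conventional mice (edgeR adjusted p = 0.0415, and 0.0748 without the 6 libraries with Adipoq), which was 0.69 without the conventional pregnant library 2 (edgeR adjusted p = 0.317), and Vwf, the endothelial clotting factor gene, rose by 0.82 ± 0.23 in germ-free mice (edgeR adjusted p = 0.0225, up to 0.107 with single libraries left out and 0.221 without the 6 libraries). Of 15 stellate cell and fibroblast markers, Lrat, which esterifies retinol, fell by 1.30 ± 0.24 in germ-free (edgeR adjusted p = 0.000641, and 0.125 without the 6 libraries) and by 1.21 ± 0.24 in conventional mice (edgeR adjusted p = 0.00151), and the collagen gene Col3a1 rose by 1.07 ± 0.23 in conventional mice (edgeR adjusted p = 0.00362). The part of these cells in the Cd36 levels was not tested.

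Other genes of fatty acid uptake moved in both directions with pregnancy. Of 25 such genes tested besides Cd36, 2 were called higher and 4 lower with pregnancy in germ-free mice, with a median log2 change of -0.17, and 1 higher and 3 lower in conventional mice, with a median of -0.05. That is 8% and 16% of the list in germ-free mice, against 7.15% and 3.6% of all genes, and 4% and 12% in conventional mice, against 5.49% and 3.52%. The percentages for the lists below are read against the same shares of all genes. The 4 genes themselves were left out of every list. The medians over all genes were -0.0227 and 0.0421. Leaving out 1 library at a time gave 1 to 4 lower in germ-free and 1 to 5 lower in conventional mice, and without the 6 libraries with Adipoq no call of the list was left in germ-free mice. Lrp1, a lipoprotein remnant receptor, rose by 0.76 ± 0.18 in germ-free mice (edgeR adjusted p = 0.00826, and 0.261 without the 6 libraries). Acsl5, which couples fatty acids to coenzyme A, rose by 0.80 ± 0.20 in conventional mice (edgeR adjusted p = 0.0116). In germ-free mice Acsl5 rose by 0.67 (edgeR adjusted p = 0.0289, up to 0.0955 with single libraries left out and 0.711 without the 6 libraries). Mfsd2a, a transporter of lysophospholipids, fell by 3.18 ± 0.66 in germ-free and by 3.02 ± 0.66 in conventional mice (edgeR adjusted p = 0.00229 and 0.00479), and the first of these became 0.101 without the 6 libraries. With germ-free status, 0 of the 25 were called in either pregnancy state by edgeR, with 5 at an unadjusted p under 0.05 in non-pregnant and 4 in pregnant mice, and DESeq2 called 0 and 1.

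Among other scavenger receptors, 1 of 14 tested was called higher and 1 lower with pregnancy in germ-free mice (7.14% each). Stab2, an endothelial receptor for hyaluronan, rose by 0.39 ± 0.12, a call that 7 of 11 single libraries could end when left out (edgeR adjusted p = 0.0353, and 0.36 without the 6 libraries). Scarf1, an endothelial receptor for modified lipoproteins, fell by 1.18 ± 0.32 (edgeR adjusted p = 0.0165, and 0.0585 without the germ-free pregnant library 3). Without the 6 libraries with Adipoq, Scarf1 changed by -0.61 (edgeR adjusted p = 0.512). Of 21 genes for CD36 partners and signalling, 2 were called higher and 1 lower with pregnancy in germ-free mice (9.52% and 4.76%), and 4 higher and 1 lower in conventional mice (19% and 4.76%). Cd9, a tetraspanin that associates with CD36, rose by 1.62 ± 0.24 in germ-free mice (edgeR adjusted p = 6.1e-05). Prkaa2, a catalytic subunit of AMP-activated kinase, fell by 0.61 ± 0.14 in germ-free mice (edgeR adjusted p = 0.00543, and 0.0501 without the 6 libraries). In conventional mice Prkaa2 fell by 0.48 ± 0.14 (edgeR adjusted p = 0.034, up to 0.0823 with single libraries left out). Tlr2, a receptor for bacterial lipoproteins that uses CD36 as a partner, differed by 2.57 ± 0.68 on the log2 scale in conventional mice (edgeR adjusted p = 0.0179), which was 0.20 without the conventional pregnant library 2, the one with the most macrophage and neutrophil markers (edgeR adjusted p = 0.831), and had an adjusted p of 0.0785 by edgeR without the 6 libraries.

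For the receptors known to raise Cd36, RNA levels and not activity were measured, and their part in the Cd36 levels was not tested. Pparg averaged 3.1 ± 0.315 CPM in germ-free pregnant, 4.51 ± 1.57 CPM in germ-free non-pregnant, 4.42 ± 1.78 CPM in conventional pregnant and 5.2 ± 1.36 CPM in conventional non-pregnant livers (SD). Nr1h3, which encodes LXR-alpha, rose by 0.52 ± 0.13 with pregnancy in germ-free mice (edgeR adjusted p = 0.00981, and 0.36 without the 6 libraries) and differed by 0.30 ± 0.13 in conventional mice (edgeR adjusted p = 0.17). Pregnancy changed neither Nr1i2, which encodes PXR (-0.37 ± 0.19 in germ-free and -0.34 ± 0.19 in conventional mice), nor Ahr (0.17 ± 0.21 and 0.30 ± 0.21) past the threshold. With germ-free status none of Pparg, Ppara, Nr1h3, Nr1i2 and Ahr passed the test, the lowest edgeR adjusted p being 0.529, for Pparg in pregnant mice.

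Across the 25 receptors and regulators, 1 was called higher and 2 lower with pregnancy in germ-free mice (4% and 8%), and 2 higher and 1 lower in conventional mice (8% and 4%). Ppard, a receptor for fatty acids, rose by 1.00 ± 0.22 in conventional mice (edgeR adjusted p = 0.00397). Nr0b2, the corepressor SHP, fell by 1.27 ± 0.34 in germ-free mice (edgeR adjusted p = 0.0165), a call lost without the germ-free non-pregnant library 2 or the germ-free pregnant library 5, at an adjusted p of up to 0.0558 by edgeR. Without the 6 libraries with Adipoq, Nr0b2 changed by -0.45 (edgeR adjusted p = 0.688). Ppargc1a, a coactivator of fasting metabolism, fell by 1.01 ± 0.25 in conventional mice (edgeR adjusted p = 0.0116) and by 1.14 ± 0.25 in germ-free mice (edgeR adjusted p = 0.00346, and 0.182 without the 6 libraries).

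Targets of those receptors moved in both directions with pregnancy. Of 22 PPAR-gamma and lipid droplet genes, 1 was called higher and 3 lower in germ-free pregnancy (4.55% and 13.6%) and 1 higher and 2 lower in conventional pregnancy (4.55% and 9.09%), where leaving out 1 library at a time gave 1 to 3 lower in germ-free and 1 to 3 higher in conventional mice. Hsd17b13, a lipid droplet enzyme, fell by 1.33 ± 0.20 in germ-free mice (edgeR adjusted p = 9.81e-05) and by 0.86 ± 0.20 in conventional mice (edgeR adjusted p = 0.00803). Plin3, a lipid droplet coat protein gene, rose by 0.50 ± 0.14 in germ-free mice (edgeR adjusted p = 0.0259), a call that 6 of 11 single libraries could end when left out, and without the 6 libraries with Adipoq its change was 0.32 (edgeR adjusted p = 0.591). Of 29 PPAR-alpha targets, 3 were called higher and 4 lower in germ-free (10.3% and 13.8%) and 4 higher and 3 lower in conventional pregnancy (13.8% and 10.3%). Fgf21, a fasting hormone gene, differed by 3.43 ± 1.01 on the log2 scale in conventional mice (edgeR adjusted p = 0.0346), which was 0.19 without the conventional pregnant library 2 (edgeR adjusted p = 0.946), and a call lost without any of 5 other single libraries or without the 6 libraries (edgeR adjusted p = 0.0919). The fatty acid hydroxylase genes Cyp4a31 and Cyp4a14 went opposite ways in germ-free mice, by 2.05 ± 0.28 and -1.85 ± 0.31 (edgeR adjusted p = 2.6e-05 and 0.000242). They did so in conventional mice too, by 2.27 and -1.40 (edgeR adjusted p = 8.23e-06 and 0.0043). Of 21 LXR and SREBP targets, 0 were called higher and 6 lower in germ-free pregnancy (28.6% lower) and 1 higher and 5 lower in conventional pregnancy (4.76% and 23.8%), with 12 of the 21 at an unadjusted p under 0.05 in either direction and 0 called higher by DESeq2 in germ-free mice. Leaving out 1 library at a time gave 3 to 7 lower in germ-free and 3 to 6 lower in conventional mice. Scd1, which makes monounsaturated fatty acids, fell the most, by 3.62 ± 0.29 in germ-free mice (edgeR adjusted p = 1.37e-08) and by 1.55 ± 0.26 in conventional mice (edgeR adjusted p = 0.000424). Pnpla3, a lipase gene of lipid droplets, rose by 3.15 ± 0.65 in conventional mice (edgeR adjusted p = 0.00274).

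The targets of PXR and CAR, nuclear receptors for drugs and other foreign compounds, were called lower more often than higher with pregnancy. Of 21 tested, 2 were called higher and 7 lower in germ-free mice (9.52% and 33.3%), and 2 higher and 4 lower in conventional mice (9.52% and 19%). Gadd45b, a stress-response gene, rose by 2.30 ± 0.33 in germ-free and by 2.66 ± 0.34 in conventional mice (edgeR adjusted p = 4.94e-05 and 1.2e-05). The cytochrome P450 gene Cyp2c55 fell by 2.83 ± 0.41 in germ-free mice (edgeR adjusted p = 5.12e-05), and Cyp2b13 fell by 3.64 ± 0.29 in conventional mice (edgeR adjusted p = 1.6e-08). Of 27 female-biased liver genes, 10 were called higher and 2 lower in each kind of mice (37% and 7.41%). Sult3a2, a sulfotransferase gene, rose by 7.75 ± 0.77 in germ-free mice (edgeR adjusted p = 3.11e-07), to 75.5 ± 42.2 CPM in pregnant against 0.35 ± 0.32 CPM in non-pregnant livers. Sult2a5, a related gene, fell by 2.90 ± 0.81 in germ-free mice (edgeR adjusted p = 0.0211, up to 0.0629 with single libraries left out and 0.299 without the 6 libraries with Adipoq), and Cyp3a41b rose by 6.23 ± 0.93 in conventional mice (edgeR adjusted p = 9.2e-05).

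Of the 12 hepatocyte markers, 6 were called higher and 1 lower with pregnancy in germ-free mice (50% and 8.33%), and 3 higher and 3 lower in conventional mice (25% each). Asgr1, the asialoglycoprotein receptor gene, rose by 1.29 ± 0.16 in germ-free mice (edgeR adjusted p = 6.83e-06). Alb, the albumin gene, rose by 1.25 ± 0.28 in conventional mice (edgeR adjusted p = 0.00535). Ttr, which encodes the thyroxine carrier transthyretin, fell by 1.69 ± 0.25 in germ-free and by 1.46 ± 0.24 in conventional mice (edgeR adjusted p = 5.37e-05 and 0.000362).

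With germ-free status, calls were rare over all genes and in the lists. In non-pregnant mice 0.0879% of all genes were called higher, the 4 genes among them, and 0.0691% lower. Of 322 distinct list genes edgeR called 0, with 23 higher and 16 lower at an unadjusted p under 0.05, and DESeq2 called 2 higher and 3 lower. The lists leave out the 4 genes and the share of all genes counts them, so this 0 cannot be set against that share. In pregnant mice edgeR called 1 higher and 3 lower (0.311% and 0.932%), against 0.0816% and 0.0502% of all genes. Cyp2b13, a female-biased cytochrome P450 and CAR target, was higher by 2.43 ± 0.28 in germ-free than in conventional pregnant mice (edgeR adjusted p = 0.000188). Scd1 differed by -2.23 ± 0.28 on the log2 scale (edgeR adjusted p = 0.000324), and the PXR target Cyp3a11 by -1.76 ± 0.32 (edgeR adjusted p = 0.0222, and up to 0.074 when 1 of the conventional pregnant libraries 4 and 5 or the germ-free pregnant libraries 3 and 5 was left out, and 0.291 without the 6 libraries with Adipoq). Of 9 AhR targets tested, edgeR called 0 in each of the 4 comparisons, with 2 to 4 at an unadjusted p under 0.05. DESeq2 called 1 of them higher and 1 lower with pregnancy in germ-free mice, 2 lower in conventional mice and 0 with germ-free status.

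**Figure D3:**
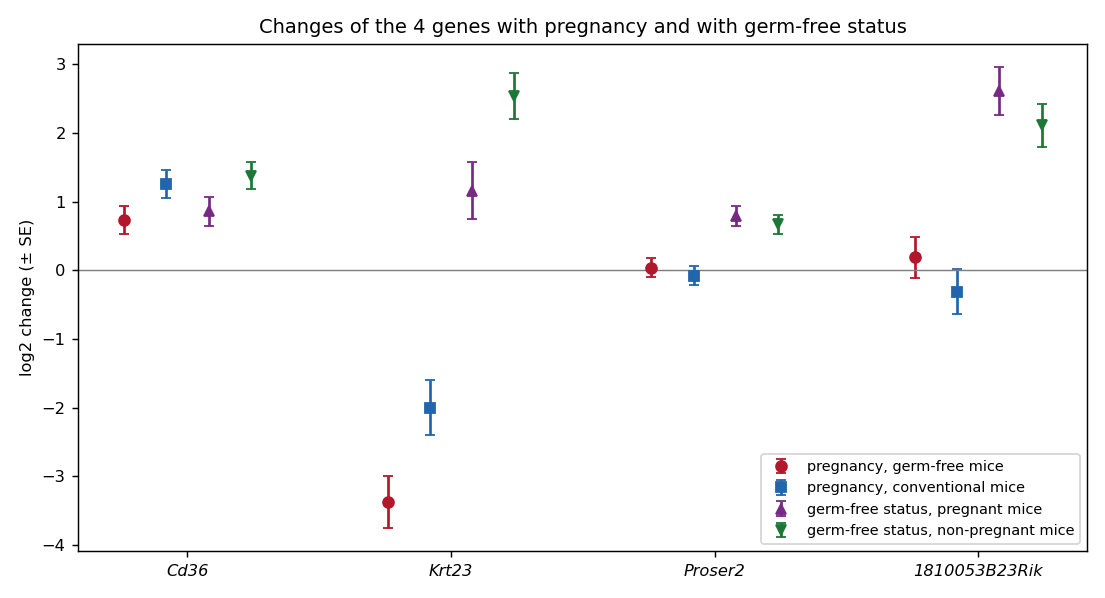
Points give the log2 change of each gene in 4 comparisons, with bars of 1 SE from the edgeR fit over 22 libraries. The changes with germ-free status chose the genes and are a description, whereas the pregnancy changes of Cd36 (above 0) and Krt23 (below 0) were called in both kinds of mice and those of Proser2 and 1810053B23Rik were not. The pregnancy tests share libraries with the comparisons that chose the genes.

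Krt23 went the other way from Cd36 in pregnancy. Germ-free pregnant livers held 0.367, 1.43, 0.744, 1.21 and 1.2 CPM of Krt23, and germ-free non-pregnant livers 9.23, 18.7, 6.65, 14.5, 7.31 and 5.44 CPM. Conventional pregnant livers held 0.58, 0.131, 0.5, 0.383 and 0.627 CPM, and conventional non-pregnant livers 1.25, 2.35, 2.16, 1.27, 2.05 and 1.48 CPM. All 6 germ-free non-pregnant libraries were above all others, and germ-free pregnant libraries reached the range of conventional non-pregnant ones. The counts behind these levels were low, summing to 96 in germ-free pregnant, 1386 in germ-free non-pregnant, 49 in conventional pregnant and 259 in conventional non-pregnant libraries.

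With pregnancy, Krt23 fell by 3.37 ± 0.38 on the log2 scale in germ-free mice (edgeR adjusted p = 1.99e-06) and by 2.00 ± 0.40 in conventional mice (edgeR adjusted p = 0.00188). It ranked 19 by size among the 574 genes called lower in germ-free mice (3.6% of all tested) and 60 among the 561 called lower in conventional mice (3.52%). Pregnant and non-pregnant libraries did not overlap in either, as for 2.81% and 2.39% of all genes in that direction. The high germ-free non-pregnant levels that chose Krt23 are also the baseline of its germ-free test, which favours a fall there. The pregnancy change was larger in germ-free mice by 1.37 ± 0.54 on the log2 scale, with a 95% interval of the difference, germ-free minus conventional, from -2.50 to -0.24. Its unadjusted edgeR p was 0.0179 and its edgeR adjusted p 0.863, so it did not pass over all genes. It is again the difference between the germ-free effects that chose the gene. Choosing Krt23 for a large germ-free effect in non-pregnant mice favours a difference below 0, so the interval and both p-values are not free of the choice. By edgeR 0 of all 15928 genes passed the test of this difference, with 369 higher and 533 lower at an unadjusted p under 0.05. DESeq2 called 2 higher and 5 lower, and limma voom 1 higher and 1 lower.

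In the contrast that chose it, Krt23 was 5.8-fold higher in germ-free than in conventional non-pregnant mice (log2 difference 2.54 ± 0.34) and 2.24-fold higher in germ-free than in conventional pregnant mice (1.16 ± 0.42). In pregnant mice 4 of 5 germ-free libraries were above all conventional ones, and the germ-free pregnant library 1, at 0.367 CPM, lay among them. The lowest conventional value, 0.131 CPM, rested on 3 counts and came from the library with the highest macrophage and neutrophil markers. Leaving out the 6 libraries with Adipoq kept the fall with pregnancy in germ-free mice at -2.87 (edgeR adjusted p = 0.00421) and that in conventional mice at -1.91 (edgeR adjusted p = 0.00782).

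The keratins of hepatocytes had other patterns. Per kilobase of exon, Krt23 ranked 7 of 10 keratin genes in germ-free pregnant livers, at 0.633 CPM per kilobase, and 3 in germ-free non-pregnant livers at 6.58, behind Krt8 at 105 and Krt18 at 88.8. It ranked 5 in conventional pregnant livers at 0.284 and 3 in conventional non-pregnant livers at 1.12 CPM per kilobase. Krt18, a main keratin of hepatocytes, rose with pregnancy in germ-free mice by 0.98 ± 0.27 (edgeR adjusted p = 0.0174, up to 0.051 without the germ-free pregnant library 2 or 5, and 0.262 without the 6 libraries with Adipoq), where Krt23 fell. Krt8, its partner, differed by 0.34 ± 0.21 (edgeR adjusted p = 0.334). With germ-free status in non-pregnant mice, where Krt23 was 5.8-fold higher, Krt8 and Krt18 differed by 0.08 ± 0.20 and -0.07 ± 0.26.

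**Figure D4:**
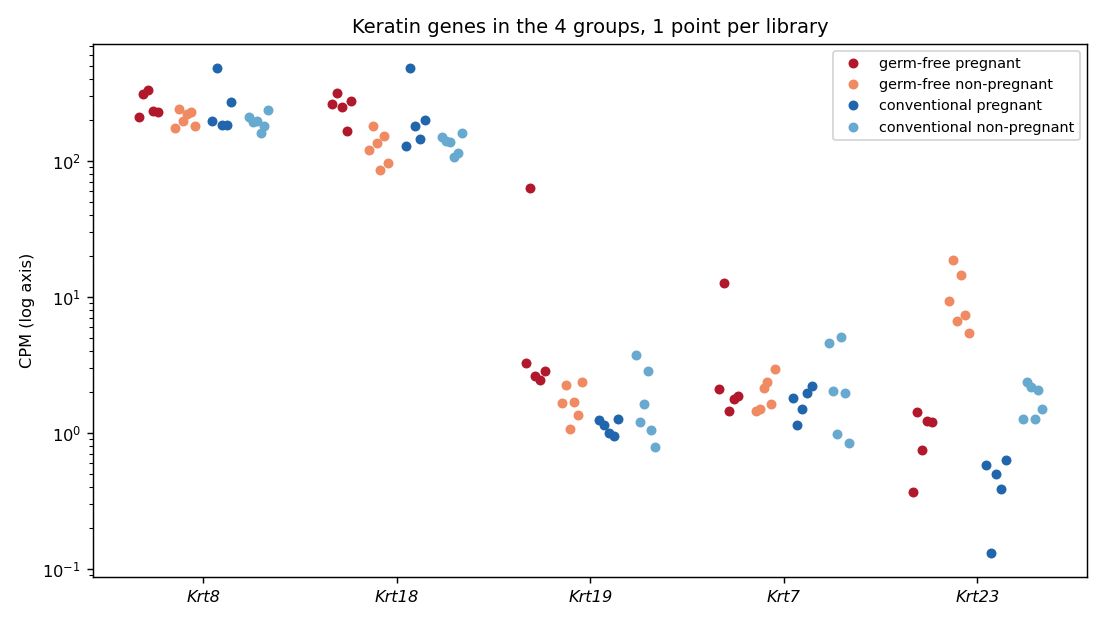
Points give the CPM of 5 keratin genes in each library on a log axis, by group. Krt8 and Krt18 lie near or above 100 CPM in every group, the germ-free pregnant library 2 stands out in Krt19 and Krt7, and the germ-free non-pregnant libraries stand out in Krt23.

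The germ-free pregnant library 2 bore on the keratin and bile duct calls. Of 16 keratin and cytoskeletal genes tested, 4 were called higher with pregnancy in germ-free mice (25%) and 0 in conventional mice (3 at an unadjusted p under 0.05, and 0 by DESeq2), and the first count was 0 without that library. Krt5, a basal epithelial keratin, had a log2 change of 3.84 ± 1.16 (edgeR adjusted p = 0.0333), a call that 6 of 11 single libraries could end when left out, and 0.284 without the 6 libraries with Adipoq. Krt19 differed by 3.10 ± 0.70 (edgeR adjusted p = 0.00457), which was 0.69 without that library (edgeR adjusted p = 0.242), and Muc1 by 3.44 ± 0.99 (edgeR adjusted p = 0.0254), which was -0.88 without it (edgeR adjusted p = 0.417) and had an adjusted p of 0.14 by edgeR without the 6 libraries. The germ-free pregnant library 2 held 62.8 CPM of Krt19, a bile duct keratin, against 2.43 to 3.24 CPM in the other 4 germ-free pregnant libraries, and 40.3 CPM of Muc1, a mucin of duct epithelium, against 0.232 to 0.863 CPM. Its Krt23 level, 1.43 CPM, was in the same range as the 1.2 and 1.21 CPM of libraries 5 and 4. The 11 bile duct markers, of which 10 were tested, summed to 46.2 to 237 CPM in germ-free pregnant, 59.0 to 104 CPM in germ-free non-pregnant, 42.8 to 57.7 CPM in conventional pregnant and 55.5 to 105 CPM in conventional non-pregnant livers, so germ-free non-pregnant livers, with the most Krt23, overlapped conventional non-pregnant ones. Of these markers 3 were called higher and 1 lower in germ-free pregnancy (30% and 10%), and 1 higher and 2 lower without that library.

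Genes of liver injury and ductular reaction had mixed calls, with 2 of 21 higher and 1 lower in germ-free pregnancy (9.52% and 4.76%), and 3 higher and 1 lower in conventional pregnancy (14.3% and 4.76%). Spp1, which encodes osteopontin, fell like Krt23 with pregnancy, by 1.07 ± 0.24 in both germ-free (edgeR adjusted p = 0.0042, and 0.151 without the 6 libraries with Adipoq) and conventional mice (edgeR adjusted p = 0.00567). Lcn2, an acute phase protein of stressed hepatocytes, differed by 4.35 ± 1.05 on the log2 scale in conventional mice (edgeR adjusted p = 0.00982), which was -0.16 without the conventional pregnant library 2 (edgeR adjusted p = 0.915) and had an adjusted p of 0.0659 by edgeR without the 6 libraries.

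Among the genes most like Krt23 over the 22 libraries, the Pearson r of log2 CPM with Krt23, given as a description because the libraries share the group differences, was 0.896 for Slc4a9, an anion exchanger, 0.884 for Slc25a51, a mitochondrial NAD carrier, 0.862 for Ppargc1a and 0.862 for Tmtc2. Slc4a9 was low, with 161 counts over all libraries and group means of 0.0253 to 0.878 CPM. The genes most like Cd36 were Egln3, an oxygen-sensing prolyl hydroxylase (r = 0.862), the lincRNA Gm34921 (0.861), Mup21 (0.841), Rassf3 (0.839) and the metallothionein gene Mt2 (0.82). Mt2 averaged 1300 ± 457 CPM in germ-free pregnant, 230 ± 96.5 CPM in germ-free non-pregnant, 437 ± 217 CPM in conventional pregnant and 61.7 ± 46.5 CPM in conventional non-pregnant livers, with the same groups at the ends as for Cd36.

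Proser2 differed with germ-free status and not detectably with pregnancy. Germ-free pregnant livers held 15.5, 19.9, 19.4, 21.4 and 20.8 CPM, and germ-free non-pregnant livers 18.3, 23.4, 20.3, 18.9, 18.4 and 13.9 CPM. Conventional pregnant livers held 14.2, 10.6, 11.5, 8.12 and 11.9 CPM, and conventional non-pregnant livers 10.9, 13.2, 12.7, 9.27, 11.2 and 13.9 CPM. Germ-free and conventional libraries did not overlap within a pregnancy state, although the lowest germ-free library, at 13.9 CPM, was below the 14.2 CPM of a conventional pregnant one. The log2 difference with germ-free status was 0.79 ± 0.15 in pregnant and 0.67 ± 0.14 in non-pregnant mice, 1.72-fold and 1.59-fold.

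The pregnancy change of Proser2 was 0.04 ± 0.14 in germ-free mice (95% interval -0.26 to 0.34, edgeR adjusted p = 0.902) and -0.08 ± 0.14 in conventional mice (95% interval -0.38 to 0.23, edgeR adjusted p = 0.822). Both intervals leave out the changes found for Krt23 and Cd36 in conventional mice. The genes most like it over 22 libraries were Flvcr2 (r = 0.816), Trp53inp1, a stress-response target of p53 (0.776), the palmitoyltransferase gene Zdhhc8 (0.762), Scarb1, the receptor for high-density lipoprotein (0.751), and Spsb2 (0.738).

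1810053B23Rik separated all germ-free from all conventional livers. Germ-free pregnant livers held 5.02, 7.04, 9.16, 5.79 and 7.38 CPM, and germ-free non-pregnant livers 5.54, 4.97, 5.72, 6.79, 6.05 and 7.14 CPM. Conventional pregnant livers held 0.58, 0.832, 1.06, 1.43 and 1.72 CPM, and conventional non-pregnant livers 0.667, 2.39, 0.985, 2.48, 1.32 and 0.591 CPM. All 11 germ-free libraries were above all 11 conventional ones. It was the only gene of 15928 tested with that pattern (0.00628%), and 1 of 7 (0.0439%) whose germ-free libraries were above the conventional ones within each pregnancy state. The log2 difference was 2.61 ± 0.35 in pregnant and 2.11 ± 0.31 in non-pregnant mice, 6.11-fold and 4.31-fold, and these values are those that chose it.

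Pregnancy did not change 1810053B23Rik past the threshold. Its log2 change was 0.19 ± 0.30 in germ-free mice (95% interval -0.44 to 0.82, edgeR adjusted p = 0.759) and -0.31 ± 0.33 in conventional mice (95% interval -1.01 to 0.39, edgeR adjusted p = 0.657). The differences between these pregnancy changes were 0.50 ± 0.45 for 1810053B23Rik and 0.12 ± 0.20 for Proser2, germ-free minus conventional, and neither passed (edgeR adjusted p = 0.906 and 0.953).

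The conventional libraries of 1810053B23Rik also sorted by age label. Conventional pregnant livers held 1.06 to 1.72 CPM at age 77 (3 libraries) and 0.58 to 0.832 CPM at age 70 (2 libraries), and conventional non-pregnant livers 0.985 to 2.48 CPM at age 77 (4 libraries) and 0.591 to 0.667 CPM at age 70 (2 libraries). All 7 libraries of the higher age label were thus above all 4 of the lower, as for 104 of 15928 genes (0.653%), with 128 genes (0.804%) in the opposite order. Germ-free livers held 5.02 CPM at age 91, 5.72 at 92, 4.97 at 100, 5.54 to 9.16 at 105 and 5.79 at 121. Germ-free mice carried the higher age labels throughout, from 91 on, which leaves age and germ-free status confounded, and they cannot be told apart for this gene. The order of the conventional libraries was noticed after the values had been seen, and no test was made. Cd36 in conventional pregnant livers was likewise 79.4 to 110 CPM at age 77 and 50.0 to 61.9 CPM at age 70, whereas in conventional non-pregnant livers the age labels overlapped, at 29.1 to 38.2 CPM and 26.7 to 34.8 CPM.

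Noct, which encodes the rhythmically expressed phosphatase nocturnin, was the gene most like 1810053B23Rik over the 22 libraries (r = 0.868), followed by the lincRNA Gm40787 (0.861), the transcription factor gene Olig1 (0.828), Tedc2 (0.812) and Sult1a1, a sulfotransferase of phenols (0.806). Gm40787 was low, with group means of 0.101 to 0.921 CPM. Noct averaged 86.6 CPM in germ-free pregnant, 92.7 CPM in germ-free non-pregnant, 43.0 CPM in conventional pregnant and 32.6 CPM in conventional non-pregnant livers. It shared the order by age label, with 30.0 to 75.0 CPM at age 77 and 20.8 to 23.1 CPM at age 70 in conventional pregnant livers, and 26.0 to 50.3 CPM at age 77 and 21.3 to 23.1 CPM at age 70 in conventional non-pregnant livers. Noct was picked for its likeness over these same libraries, so the shared order is not a separate observation. Tedc2 also had that order, whereas Olig1 did not.

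**Figure D5:**
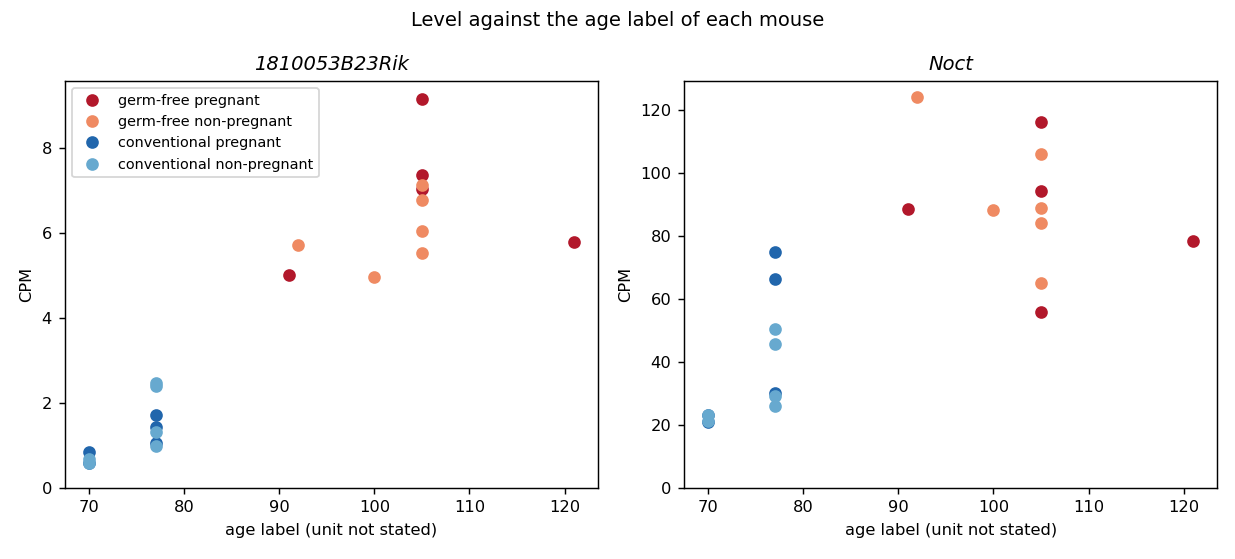
Each point is 1 library, with the age label (unit not stated) on the horizontal axis and CPM on the vertical axis, for 1810053B23Rik and Noct, coloured by group. Conventional libraries at age 70 lie below those at age 77, and all germ-free libraries lie at age 91 or above.

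Neighbouring genes did not pass the test with germ-free status. The nearest tested genes were Sema3c and Gnai1 beside Cd36, Krt10 and Krt19 beside Krt23, Upf2 and Echdc3 beside Proser2, and Runx1 and 1810044K17Rik beside 1810053B23Rik. 1810044K17Rik, a lincRNA that starts 1571 bases away on the opposite strand, averaged 0.822 CPM in germ-free pregnant, 1.22 CPM in germ-free non-pregnant, 0.546 CPM in conventional pregnant and 0.742 CPM in conventional non-pregnant livers. Its germ-free difference was 0.58 ± 0.71 in pregnant and 0.70 ± 0.63 in non-pregnant mice on the log2 scale (edgeR adjusted p = 0.831 and 0.999). Krt19 came nearest to the threshold, at 3.72 ± 0.78 in pregnant mice (edgeR adjusted p = 0.0543), and its germ-free pregnant mean of 14.8 ± 26.8 CPM rested on library 2.

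Within groups, Krt23 and Proser2 varied together. Whether they did so more than other pairs of genes was not tested, and other genes, named below, had a higher r with each. The p-values that chose the genes rest on the spread of each gene within groups, which permuting libraries within a group leaves as it is. Deviations of log2 CPM from the group means had a Pearson r of 0.62 for this pair over 22 libraries (permutation p = 0.00643, adjusted over 6 pairs 0.0386) and a Spearman rho of 0.61 (permutation p = 0.00517, adjusted 0.031), with labels permuted within groups 100000 times, two-sided. The r was 0.61 without the 2 libraries farthest from the median in Krt23 and 0.57 in the 16 libraries with at most 1 CPM of Adipoq. Cd36 and Krt23, which pregnancy moved in opposite directions, had an r of 0.54 within groups (adjusted permutation p = 0.0789) and a rho of 0.53 (adjusted permutation p = 0.077), which did not pass, with 0.65 without the 2 farthest libraries and 0.34 in those 16. The remaining 4 pairs had adjusted permutation p-values of at least 0.31 for r. Of all genes, those whose deviations were most like each of the 4 were Fbln7, Ankrd2 and Vmn1r18 for Cd36 (r = 0.786, 0.756 and 0.746), Mga, Gm34220 and 1010001N08Rik for Krt23 (0.784, 0.766 and 0.758), Coq8a, Slco2a1 and Dlc1 for Proser2 (0.826, 0.814 and 0.795) and Pstk, Slc26a2 and Mat2b for 1810053B23Rik (0.786, 0.74 and 0.738), given as a description. Fbln7 and Vmn1r18 were low, with group means of 0.359 to 0.484 and 0.219 to 0.596 CPM. The labels name no sequencing batch, and the deviations of Krt23 and Proser2 had an r of 0.31 and -0.14 with log2 library total and of 0.12 and -0.14 with the mitochondrial percentage.

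The values that chose the genes were as follows. In non-pregnant mice 14 genes (0.0879% of those tested) were called higher and 11 (0.0691%) lower in germ-free mice, and Krt23, Cd36, 1810053B23Rik and Proser2 stood 1, 2, 3 and 12 among the 14 by p. The last gene inside the threshold was Trp53inp1, with an adjusted p of 0.0493 by edgeR, and the first outside was Adcy1, with 0.06. In pregnant mice 13 genes (0.0816%) were called higher and 8 (0.0502%) lower, and 1810053B23Rik and Proser2 were among the 13 and Cd36 and Krt23 were not. The last inside was Cyp2c39, with 0.0499, and the first outside was Krt19, with 0.0543. The pregnant and non-pregnant comparisons with germ-free status share no libraries with each other, but each shares its libraries with the pregnancy comparisons. The p-values of the pregnancy changes are therefore not independent of how the genes were chosen. Choosing on high germ-free and low conventional levels in non-pregnant mice favours a fall with pregnancy in germ-free mice and a rise in conventional mice.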

How the data were processed

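Liver RNA of 22 mice was measured by RNA-seq, 1 library per mouse, and the labels describe separate mice, so the p-values rest on variation from mouse to mouse. The authors deposited unscaled estimated counts for each gene. Salmon 0.11.3, edgeR 3.24.3 and GRCm38.p6 are named in the submitters' processing notes, and the annotation release is not given in the sources used here. Reads that match several transcripts are shared out in such counts, and 14.7% to 26.3% of values per library were not whole.

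Counts were rounded (0.0083% of the total changed), filtered with the default of edgeR 4.0.16 (minimum count 10, total 15), scaled by TMM and fitted over all 22 libraries by quasi-likelihood with a term for each group. P-values were adjusted by Benjamini-Hochberg over 15928 genes, with calls made below an adjusted p of 0.05. Fold changes are log2 ± SE, the SE derived from the F statistic, and 95% intervals use 18 residual degrees of freedom. Levels are CPM of the effective library size. Log2 CPM used a prior count of 2. Of the identifiers, 97.7% matched GENCODE M21 in full and 99.93% when versions were ignored. Per-kilobase levels use exon length. Sequences come from the RefSeq promoter table.

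The genes named are the 4 genes, the called gene with the largest change in each direction of each of 22 lists at 1 CPM or more in the higher group, the 5 genes most correlated with each of the 4 and the 3 most correlated in deviations from group means, and their neighbours. One of the genes most correlated with Krt23 is not reported here. Adipoq, Lep, Muc1, Krt7, Krt8, Krt18, Pparg, Ppara, Nr1i2, Ahr and Fabp1 were added for their role, some after their values were seen. The 4 genes and all lists were chosen with earlier results of these data known. Alternatives were DESeq2 1.42.0 and its size factors, limma 3.58.1 voom, no filter, fewer groups, a replicate block, an age covariate, no mitochondrial genes, and libraries left out. The libraries of one group were not repeats of each other (mean chi-square per gene at least 34.6 in 50 pairs). Replicate numbers did not pair the mice. Correlations used permutations in numpy 2.4.6.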

Additional observations from a re-analysis of the deposited data

How the results depend on the processing

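Over the 12 tested changes of the 4 genes, 269 of 276 alternative values kept the direction and the side of the threshold, and the 8 germ-free differences, which have no test, kept their direction and moved by less than 1 SD between replicates in 152 of 152. The pregnancy change of Cd36 in germ-free mice lost its call without the germ-free pregnant library 5 and without the 6 libraries with Adipoq (0.85, adjusted p = 0.126), and ranged from 0.62 to 0.84 with single libraries left out. Changes near 0 reversed: Proser2 in germ-free mice without the filter on low counts (-0.00302) and, with single libraries left out, between -0.0336 and 0.11, Proser2 in conventional mice between -0.17 and 0.0231, and 1810053B23Rik in germ-free mice without the 6 libraries (-0.081). The called list genes (pregnancy 36 higher and 32 lower in germ-free, 32 and 26 in conventional mice) were 12, 10, 21 and 21 without the 6 libraries, with 40 lower by DESeq2 in conventional mice. Without pregnancy, germ-free status gave DESeq2 calls of 2 higher and 3 lower and, under the replicate block, 1 lower. In pregnant mice the 1 higher became 2 without the filter and 3 by DESeq2, and the 3 lower became 5 by DESeq2, 1 with only the groups compared and 1 without the 6 libraries.

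Over all genes, DESeq2 called 876 lower with pregnancy in germ-free and 896 in conventional mice, and, with germ-free status, 55 higher and 62 lower in non-pregnant and 64 and 44 in pregnant mice. With only the groups compared, 497 rose with conventional pregnancy, 18 were lower in germ-free than in conventional non-pregnant mice, and 2 were higher and 3 lower in pregnant mice. Without the filter, 18 were lower in germ-free than in conventional non-pregnant mice, and 20 were higher and 15 lower in pregnant mice. Limma voom called 9 higher in non-pregnant mice. Without the 6 libraries, pregnancy calls were 246 higher and 101 lower in germ-free and 528 higher in conventional mice, and germ-free calls numbered 0 without pregnancy and 1 higher and 2 lower in pregnant mice. Single libraries left out gave 810 to 1322 higher and 384 to 768 lower in germ-free pregnancy, 659 to 1134 and 377 to 668 in conventional pregnancy, and, with germ-free status, 5 to 16 and 5 to 14 in non-pregnant and 2 to 20 and 2 to 11 in pregnant mice. Samples with the same replicate number deviated with an r of -0.26 to 0.31. With the replicate block Cd36 changed by 0.69 in germ-free (adjusted p = 0.0198) and 1.16 in conventional pregnancy, Krt23 by -3.45 and -2.05, no call of the 4 genes changed, and 19 genes were called lower with germ-free status in non-pregnant mice. The cause of these moves was not tested, and fits without libraries also have fewer samples. Krt23 rests on 49 counts in conventional pregnant mice, which limits its precision there.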
